A study of Sus scrofa with 32 samples.

Results

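A set of 7 genes known as markers of immature or regenerating muscle fibres was followed in the loin muscle (longissimus dorsi) of pigs, by RNA sequencing of whole tissue. The genes are MYH3 (ENSSSCG00000018007), MYH8 (ENSSSCG00000018005), ACTC1 (ENSSSCG00000004803), TNNT2 (ENSSSCG00000023031), MYMK (ENSSSCG00000022891), NCAM1 (ENSSSCG00000015045) and CHRNA1 (ENSSSCG00000015969), each taken by its Ensembl identifier. They are 7 of 17930 genes listed in the files, and all 7 were among the 12821 genes tested. The 32 libraries are labelled as wild-type pigs aged 6 months, reared and fed alike, with 8 libraries in each of 4 breed groups. The groups are Dapulian (DPL), an indigenous Chinese breed, Landrace x Dapulian (LDPL), Duroc x Landrace x Dapulian (DLDPL), and Landrace (L), a lean commercial breed. The labels speak of 32 pigs, 1 library each, and give no batch.

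Muscle fibres form when myoblasts fuse, and the young fibre first builds its sarcomeres from embryonic and perinatal myosin and from actin and troponin isoforms that the adult heart keeps. As the fibre matures and is innervated, adult isoforms take over, and the acetylcholine receptor and the adhesion molecule NCAM withdraw from most of the fibre surface to the synapse. In regenerating or denervated adult muscle these genes are expressed again, while satellite cells, the stem cells of muscle, supply new myoblasts. In whole tissue, fewer cells of a type and less RNA per cell cannot be told apart.

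The libraries held between 21700000 and 29700000 uniquely mapped reads, rounded to 100000, with 14241 to 15664 listed genes each. The mitochondrial share of reads averaged 31.3 ± 5.59% for DPL, 22.9 ± 4.37% for LDPL, 22.7 ± 4.86% for DLDPL and 20.8 ± 2.58% for L (SD, n = 8 each). The replicate numbers of L form a series of their own, so any separate handling of the L libraries and the breed cannot be told apart. L replicate 2 stood apart. On the log2 scale of counts relative to library size (CPM) after TMM scaling for composition, 60 of the tested genes were at least 2-fold above the next highest library there, against at most 9 in any of the other 31 libraries. It was the highest of the 32 libraries for 5 of the 7 genes, MYH3, ACTC1, TNNT2, NCAM1 and CHRNA1, and for 9.656% of all tested genes. Comparisons of the 7 genes with L are therefore given with and without it. Levels are the deposited RPKM, reads relative to gene length and to the library's total. These are not scaled for composition, and the TMM factor of L replicate 2, the highest of the 32, was 1.44.

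The reads behind the 7 genes differed by orders of magnitude. The row labelled MYH8 held 180805 to 1349670 reads per library, NCAM1 183 to 1424, ACTC1 116 to 10290, MYH3 19 to 8052, TNNT2 6 to 1772, MYMK 10 to 97 and CHRNA1 0 to 212. MYMK and TNNT2 have short listed lengths of 666 and 888 bases, so that their few reads still covered 82.1 to 98.8% and 54.7 to 94.7% of the length. CHRNA1 was different: reads covered 14.6 to 35.9% of its 1443 bases, and 29.1% in L replicate 2, where it had 212 reads. For CHRNA1, then, the reads lay on a part of the listed gene, and a change measures that part.

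**Figure D1:**
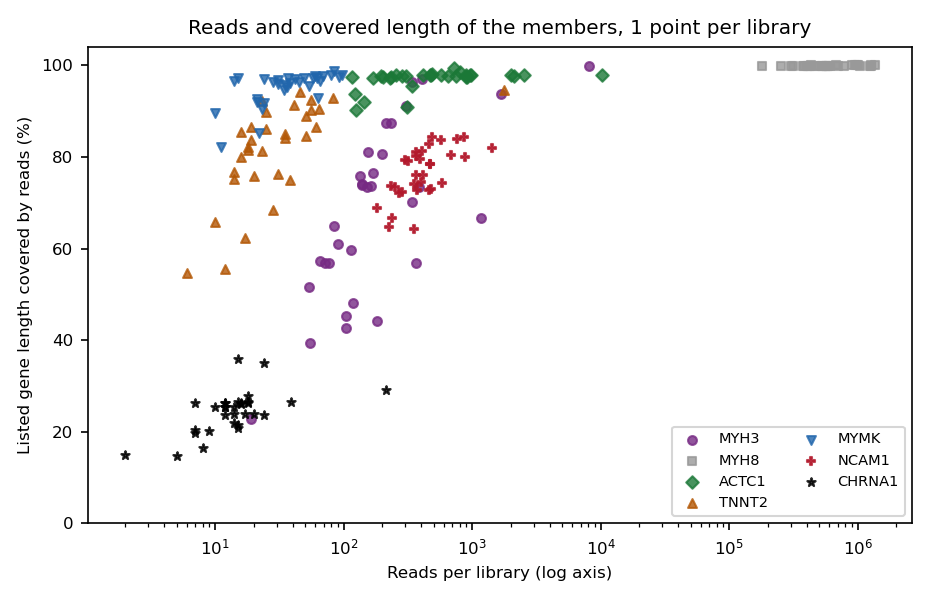
Percent of the listed gene length covered by reads (y axis) against reads per library on a log axis (x axis), with 1 point per library for each of the 7 genes. CHRNA1 stays between 14.6 and 35.9% even at 212 reads, whereas the row labelled MYH8 is covered almost whole in every library.

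Markers of muscle fibres were high in all groups, and of 9 listed 2 were found under their symbols. Mean RPKM of ACTA1, the adult skeletal actin, was 25751 in DPL, 37044 in LDPL, 34764 in DLDPL and 49701 in L. DES, the other marker, was highest in DPL, at 2977, with 2741 in LDPL, 2584 in DLDPL and 2462 in L. By edgeR DES was higher in DPL than in L (log2 change 0.47 ± 0.14, SE, adjusted p = 0.0102). The row labelled MYH8 went against its label. By mean RPKM it ranked 22 of all listed genes, it took 0.832 to 5.26% of the reads of a library, and it lay far above MYH13 (250 to 556 mean RPKM per group), another myosin heavy chain. MYH1, MYH2, MYH4 and MYH7, the adult heavy chains, were not matched to any identifier and are not analysed here. Myosin heavy chain genes are near-identical over long stretches, so which gene these reads come from is uncertain, and the row is called the row labelled MYH8.

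**Figure D2:**
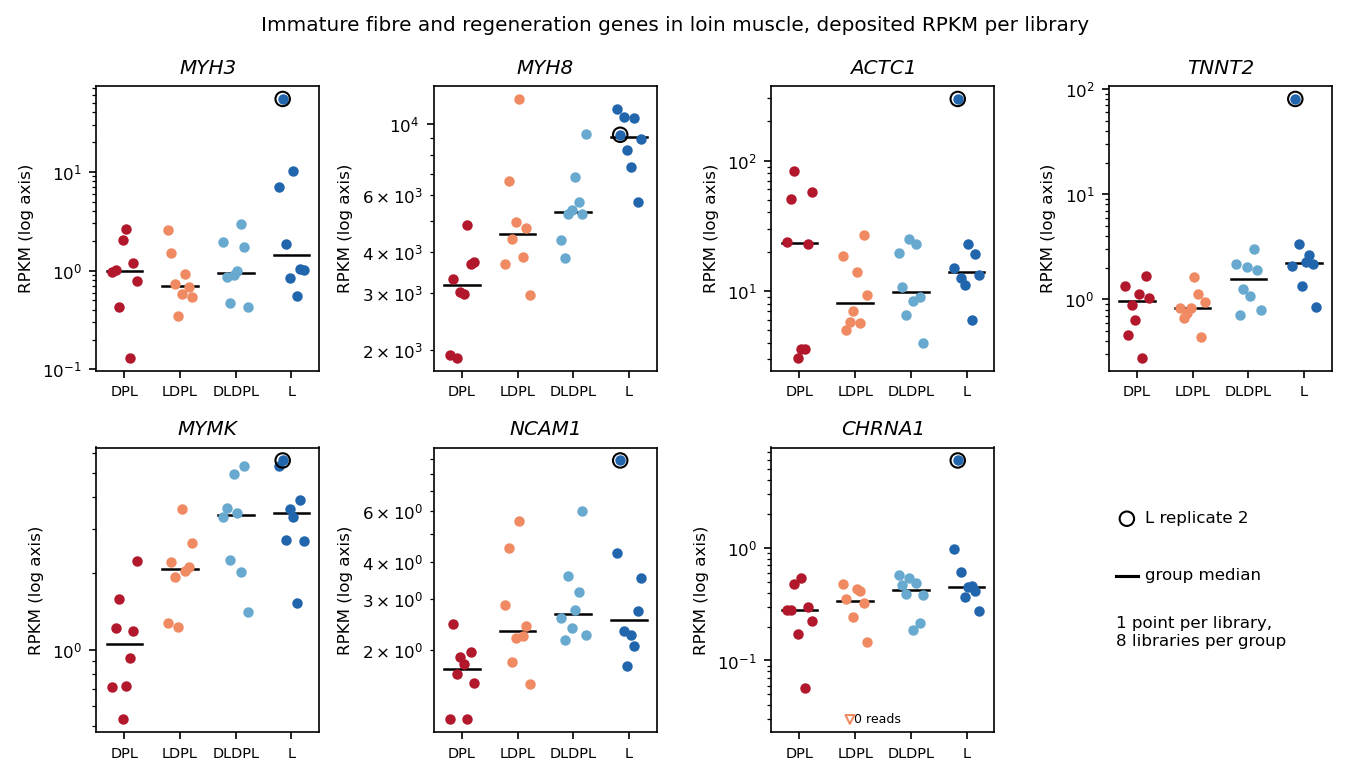
Deposited RPKM on a log axis (y axis) of each of the 7 genes in DPL, LDPL, DLDPL and L (x axis), with 1 point per library, bars at the group medians and a ring around L replicate 2. The row labelled MYH8 and MYMK separate DPL from L over most libraries. The high L values of ACTC1, TNNT2, NCAM1 and CHRNA1 are those of the ringed library.

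MYH3, the embryonic myosin heavy chain that developing and regenerating fibres make first, was lower in all 3 groups with Dapulian ancestry than in L. Its lowest, median and highest RPKM were 0.131, 0.989 and 2.63 in DPL, 0.351, 0.703 and 2.60 in LDPL, and 0.425, 0.951 and 2.96 in DLDPL. In L they were 0.549, 1.45 and 54.6. The ranges overlapped, and the height of L came from 3 libraries: L replicates 1, 2 and 7 were at 7.05, 54.6 and 10.1 RPKM, while the other 5 lay between 0.549 and 1.87. By edgeR's quasi-likelihood test with Benjamini-Hochberg adjustment over all tested genes, the log2 change was -2.65 ± 0.67 in DPL (SE, adjusted p = 0.00214), -2.92 ± 0.68 in LDPL (adjusted p = 0.00143) and -2.67 ± 0.67 in DLDPL (adjusted p = 0.00412), each against L. Without L replicate 2 the log2 changes were -1.44 (adjusted p = 0.0378), -1.70 (adjusted p = 0.0197) and -1.45 (adjusted p = 0.0548), so that the call in DLDPL was lost, as it was with limma on log2(RPKM + 1) or log2(RPKM + 0.1). By RPKM mean the order was L, DLDPL, DPL and LDPL, and among the last 3 no difference exceeded its spread (log2 changes between -0.27 and 0.26, adjusted p from 0.882 to 0.992). In the library with the fewest MYH3 reads, DPL replicate 23 with 19 reads, they covered 22.7% of the gene. In L replicate 1 the 1159 reads covered 66.6%, whereas 303 reads in L replicate 4 covered 91.1%. The level in L replicate 1 may thus measure mainly a part of the gene, and the source of these reads was not tested. In L replicates 2 and 7 the covered share was 99.95% and 93.7%.

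The row labelled MYH8, named for the perinatal myosin heavy chain, was lower in DPL than in L. It stood at 1885, 3159 and 4872 RPKM in DPL (lowest, median and highest), 2954, 4572 and 11927 in LDPL, 3837, 5343 and 9270 in DLDPL, and 5712, 9100 and 11103 in L. All 8 DPL libraries lay below all 8 L libraries, and the other groups overlapped with L. It was lower in DPL than in L by a log2 change of -1.32 ± 0.25 (adjusted p = 9.61e-05, 2.50-fold) and lower in LDPL than in L by -0.70 ± 0.25 (adjusted p = 0.0323). Without L replicate 2 the log2 changes of DPL, LDPL and DLDPL against L were -1.39 ± 0.25 (adjusted p = 6.81e-05), -0.76 ± 0.25 (adjusted p = 0.0228) and -0.67 ± 0.25 (adjusted p = 0.0521). The call in LDPL was lost without LDPL replicates 4, 8, 9, 14, 15 or 24, or L replicates 1, 4 or 8, each left out alone, with adjusted p of up to 0.0683. In DLDPL against L the log2 change was -0.61 ± 0.25 (adjusted p = 0.0724), and it was called without DLDPL replicate 32 (-0.79, adjusted p = 0.0201). The order of mean levels was L, DLDPL, LDPL and DPL. Neither DLDPL against LDPL (0.08 ± 0.25, adjusted p = 0.973) nor LDPL against DPL (0.63 ± 0.25, adjusted p = 0.163) passed the test after adjustment. DLDPL against DPL gave 0.71 ± 0.25 (adjusted p = 0.0940), and it was called without DPL replicate 23 (0.89, adjusted p = 0.0364). DPL was also the group with the largest share of mitochondrial reads, the lowest mean ACTA1 and the highest mean DES. The call in DPL against L was kept in all 10 other settings (log2 changes from -1.53 to -1.31). A fit without the mitochondrially encoded genes was 1 of them. Beyond that, the part of mitochondrial reads and of ACTA1 in the result was not tested.

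ACTC1, the cardiac actin that skeletal muscle makes before birth and again in regeneration, varied widely among the Dapulian libraries and had 1 far higher library in L. DPL replicates 19, 21 and 23 were at 3.07, 3.59 and 3.62 RPKM, and the other 5 DPL libraries at 23.1 to 82.6. LDPL ran from 5.04 over a median of 8.13 to 26.7, DLDPL from 4.01 over 9.84 to 25.1, and L from 6.02 over 14.1 to 296.5. L replicate 2 held the 296.5 and the other 7 L libraries reached at most 23.0, so the groups overlapped and the mean of L, 49.6 ± 99.9 RPKM (SD, n = 8), was mostly that of 1 library. DPL against L gave a log2 change of -0.23 ± 0.64 (adjusted p = 0.805), and 1.18 ± 0.54 without L replicate 2 (adjusted p = 0.0851), with the sign turned. LDPL was lower than L by -1.71 ± 0.66 (adjusted p = 0.0495), a call that rested on L replicate 2, without which the change was -0.30 ± 0.53 (adjusted p = 0.715). It was also lost on leaving out L replicate 7 or LDPL replicates 5, 8, 9, 10, 14 or 24 alone, and in 6 of 10 other settings. By mean the order was L, DPL, DLDPL and LDPL, and no pair of neighbours passed the test after adjustment. DLDPL against L gave -1.59 ± 0.66 (adjusted p = 0.0818), and -0.18 ± 0.53 without L replicate 2 (adjusted p = 0.843). Against DPL, LDPL gave -1.48 ± 0.66 (adjusted p = 0.232) and DLDPL -1.35 ± 0.66 (adjusted p = 0.243).

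TNNT2, the cardiac troponin T that binds tropomyosin in the thin filament and that embryonic skeletal muscle shares with the heart, had few reads in 31 libraries and many in 1. It ranged over 0.277, 0.961 and 1.66 RPKM in DPL, 0.441, 0.825 and 1.63 in LDPL, 0.703, 1.57 and 2.98 in DLDPL, and 0.854, 2.21 and 80.7 in L (lowest, median and highest). The 80.7 RPKM of L replicate 2 rested on 1772 reads, and the next highest library of all, in L, was at 3.399 with 82 reads. The log2 changes were -3.18 ± 0.64 in DPL (adjusted p = 0.000203), -3.31 ± 0.65 in LDPL (adjusted p = 0.000225) and -2.54 ± 0.61 in DLDPL (adjusted p = 0.00304), each against L. Without L replicate 2 they were -1.13 ± 0.32 (adjusted p = 0.00557), -1.26 ± 0.32 (adjusted p = 0.00349) and -0.49 ± 0.31 (adjusted p = 0.278). TNNT2 was thus lower in DPL and LDPL with or without that library, and in DLDPL only with it. The DLDPL call was also lost with DESeq2 and with limma on log2(RPKM + 1) or log2(RPKM + 0.1). By mean the order was L, DLDPL, DPL and LDPL, and among the last 3 it was not called (adjusted p from 0.621 to 0.949).

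MYMK (myomaker), the membrane protein that myoblasts need in order to fuse, was the one gene of the 7 that passed the test between a cross and Dapulian. It stood at 0.530, 1.06 and 2.23 RPKM in DPL (lowest, median and highest), 1.22, 2.08 and 3.61 in LDPL, 1.41, 3.402 and 5.30 in DLDPL, and 1.53, 3.47 and 5.58 in L. Levels followed the order L, DLDPL, LDPL and DPL, and the DPL values overlapped with the lower values of each other group. MYMK was lower in DPL than in L by -1.47 ± 0.28 (adjusted p = 0.000108, 2.77-fold), and by -1.45 ± 0.29 without L replicate 2. It was higher in DLDPL than in DPL by 1.38 ± 0.28 (adjusted p = 0.00416, 2.60-fold), a call kept when each of the 16 libraries was left out in turn (adjusted p up to 0.0110). Neighbours in the order did not pass the test after adjustment: DLDPL against L gave -0.09 ± 0.26 (adjusted p = 0.844), DLDPL against LDPL 0.57 ± 0.27 (adjusted p = 0.638), and LDPL against DPL 0.81 ± 0.28 (adjusted p = 0.117). The last was called without DPL replicate 30 (1.01, adjusted p = 0.0499). LDPL against L gave -0.66 ± 0.27 (adjusted p = 0.0618), and it was called without LDPL replicate 10 or L replicate 8, at an adjusted p as low as 0.0272. Without L replicate 2 LDPL against L gave -0.64 ± 0.28 (adjusted p = 0.0863) and DLDPL against L -0.06 ± 0.28 (adjusted p = 0.893). These levels rest on 10 to 97 reads per library, which limits their precision.

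NCAM1, the adhesion molecule found on satellite cells, young or denervated fibres and synapses, was lower in DPL. It ranged over 1.16, 1.72 and 2.47 RPKM in DPL, 1.54, 2.33 and 5.55 in LDPL, 2.17, 2.67 and 5.97 in DLDPL, and 1.76, 2.53 and 8.90 in L (lowest, median and highest). The groups overlapped, and the medians of LDPL, DLDPL and L lay close together. By mean the order was L, DLDPL, LDPL and DPL. DPL against L gave a log2 change of -0.80 ± 0.24 (adjusted p = 0.00867), and -0.61 ± 0.23 without L replicate 2 (adjusted p = 0.0346). LDPL and DLDPL did not differ from L beyond their spread (-0.14 ± 0.24 and -0.09 ± 0.24, adjusted p = 0.685 and 0.818), nor from each other (0.05 ± 0.24). Against DPL they gave 0.66 ± 0.24 (LDPL, adjusted p = 0.135) and 0.71 ± 0.24 (DLDPL, adjusted p = 0.0858).

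CHRNA1, the alpha subunit of the muscle acetylcholine receptor, was near the limit of detection. It stood at 0.0568, 0.281 and 0.541 RPKM in DPL, 0, 0.338 and 0.476 in LDPL, 0.187, 0.425 and 0.568 in DLDPL, and 0.277, 0.451 and 5.94 in L (lowest, median and highest). LDPL replicate 8 had no reads, which allows a level of up to 0.0864 RPKM at 3 reads, for counting error only. Apart from L replicate 2 no library exceeded 0.981 RPKM, and the groups overlapped. By mean the order was L, DLDPL, LDPL and DPL, and the last 3 did not differ beyond their spread (adjusted p from 0.733 to 0.980). The log2 changes against L were -1.66 ± 0.50 in DPL (adjusted p = 0.0089), -1.70 ± 0.50 in LDPL (adjusted p = 0.00993) and -1.29 ± 0.49 in DLDPL (adjusted p = 0.0557). Both calls rested on L replicate 2: without it the changes were -0.75 (adjusted p = 0.149), -0.79 (adjusted p = 0.147) and -0.37 (adjusted p = 0.546), and no call was left. The LDPL call was also lost with limma on log2(RPKM + 1). DLDPL against L was called when L replicates 5, 7, 8, 9 or 10 were left out one at a time, with adjusted p of at least 0.0369.

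Set against L, 6 of 7 genes were lower in DPL, all but ACTC1, where 38% of all tested genes were called and 18.9% were lower. In LDPL 5 of 7 were lower, against 29.6% of all genes called and 14.7% lower. In DLDPL 2 of 7 were lower, against 21.9% called, 11.6% higher and 10.3% lower. The median log2 changes of the 7 were -1.47, -1.70 and -1.29, and those of all tested genes -0.02, -0.03 and -0.02. The 3 comparisons share the L libraries, so they are not separate evidence. Without L replicate 2 the counts were 5, 3 and 0, against 37.2%, 28.3% and 21.8% of all genes called and 18.6%, 13.9% and 10.2% lower. In DLDPL against L without it, 2 genes had an unadjusted p under 0.05. The calls that remained in DPL were MYH3, the row labelled MYH8, TNNT2, MYMK and NCAM1. Those in LDPL were MYH3, the row labelled MYH8 and TNNT2. The median changes were -1.13, -0.76 and -0.37. The row labelled MYH8, of uncertain identity, is thus in the counts for DPL and LDPL with and without L replicate 2. With the deposited library totals in place of TMM the median change of all genes in DPL against L was -0.19, with 1323 genes higher and 3361 lower in DPL, against 2455 and 2418 with TMM. For LDPL against L that median was -0.11, with 1227 genes higher and 1960 lower in LDPL, against 1905 and 1889 with TMM.

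**Figure D3:**
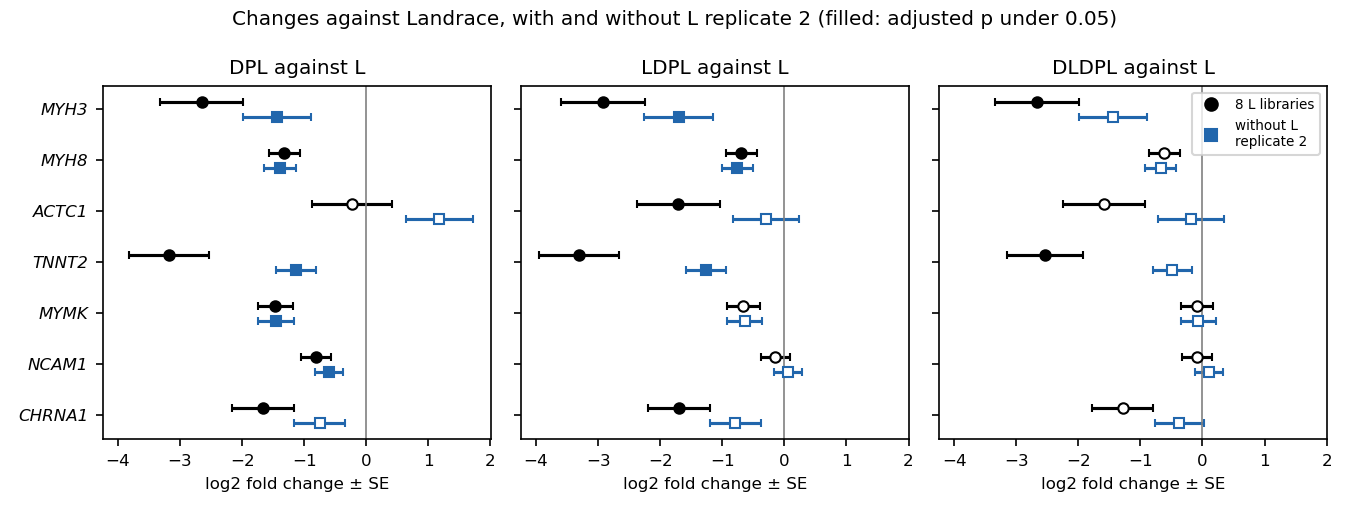
Log2 fold change with its standard error (x axis) of the 7 genes (y axis) in DPL, LDPL and DLDPL, each against L, from all 8 L libraries (circles) and without L replicate 2 (squares); filled symbols have an adjusted p under 0.05. The changes of MYH3, ACTC1, TNNT2 and CHRNA1 move toward or past 0 without that library. Those of MYMK and the row labelled MYH8 hardly move.

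Between the groups with Dapulian ancestry 1 call was made among the 7 genes. In DLDPL against DPL 1 of 7 was called, MYMK, where 4.1% of all tested genes were called, 1.98% higher and 2.12% lower. With deposited totals the count was 2, and the median change of all genes was then 0.15, with 481 genes higher and 49 lower in DLDPL against 254 and 272 with TMM. In LDPL against DPL 0 of 7 were called by edgeR and 0 by DESeq2. By edgeR 2.84% of all genes were called there, 1.29% higher and 1.55% lower. Of the 7, 4 had an unadjusted p under 0.05 by edgeR (NCAM1, the row labelled MYH8 and MYMK higher, ACTC1 lower). With deposited totals 196 genes were higher and 54 lower in LDPL, against 165 and 199 with TMM. In DLDPL against LDPL 0 of 7 were called by edgeR or DESeq2, with 1 member of the set, MYMK, below 0.05 before adjustment. By edgeR 0% of all genes were called there, and by DESeq2 26 genes were higher and 7 lower. The median log2 change of the 7 was 0.64 in DLDPL against DPL, -0.04 in LDPL against DPL and 0.26 in DLDPL against LDPL, against medians of -0.0017, 0.0027 and 0.0040 for all tested genes in LDPL against DPL, DLDPL against DPL and DLDPL against LDPL.

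Whether the 7 genes move together within groups was asked over the 21 pairs, on log2 CPM with each group's mean removed. Of these, 5 pairs were correlated by Pearson's r at a permutation p adjusted over the 21 pairs under 0.05, all of them positively. They were TNNT2 with CHRNA1 (r = 0.64, permutation p = 0.00239, adjusted p = 0.0354), MYH3 with TNNT2 (r = 0.61, permutation p = 0.00675, adjusted p = 0.0354), MYH3 with CHRNA1 (r = 0.55, permutation p = 0.0036, adjusted p = 0.0354), ACTC1 with CHRNA1 (r = 0.52, permutation p = 0.00623, adjusted p = 0.0354) and MYMK with ACTC1 (r = 0.49, permutation p = 0.00972, adjusted p = 0.0408). Spearman's rho of these pairs was 0.48, 0.43, 0.45, 0.41 and 0.51, in that order, with permutation p = 0.00623, 0.0207, 0.0144, 0.0269 and 0.00488, and none of the 21 pairs passed by rho after adjustment. On leaving out the 2 libraries farthest from the median of the first gene of each pair, r was 0.34, 0.21, 0.22, 0.26 and 0.41.

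The relation rested on L replicate 2. Without it 0 of 21 pairs passed by Pearson's r, and the median r over the pairs was 0.11, against 0.28 with it. MYMK with ACTC1 was the exception in size, with r = 0.51 over the other 31 libraries (permutation p = 0.00926, adjusted p = 0.195). Within single groups that pair gave r = 0.74 in DPL, 0.13 in LDPL, 0.37 in DLDPL and 0.46 in L, over 8 libraries each. Leaving out DPL replicate 23 alone also left 0 pairs, and leaving out DPL replicate 16 left 3. The row labelled MYH8 passed the test with none of the other 6 genes. Its r was -0.30 with MYH3, -0.33 with ACTC1, -0.19 with TNNT2, -0.11 with CHRNA1, -0.02 with MYMK and 0.28 with NCAM1, with adjusted p from 0.146 to 0.937.

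**Figure D4:**
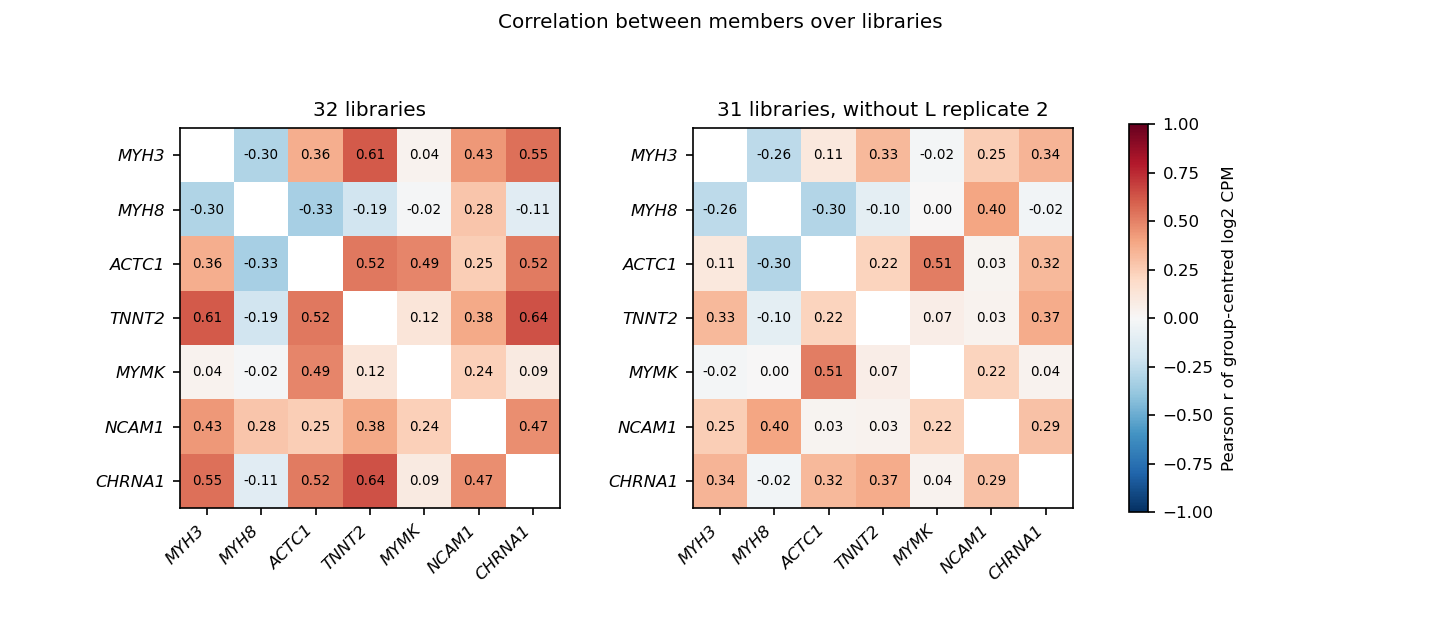
Pearson's r between the 7 genes (both axes) over all 32 libraries (left) and over the 31 libraries without L replicate 2 (right), on log2 CPM with the group means removed; colour gives r from -1 to 1. The red block of MYH3, ACTC1, TNNT2, NCAM1 and CHRNA1 on the left fades on the right, and the median r is 0.28 on the left and 0.11 on the right.

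L replicate 2 was looked at further after its values were seen. MYL4, the embryonic and atrial myosin light chain, was at 11.4 RPKM there and at most 1.09 in the other 31 libraries, and it did not pass the filter on low counts. ACHE, the acetylcholinesterase of the synapse, was at 7.86 RPKM against at most 0.959 in the others, and ERBB3, a neuregulin receptor, at 1.75 against at most 0.397. MYOD1, a master regulator of the muscle lineage, was at 23.0 RPKM against at most 15.7, and VCAM1, an adhesion molecule of satellite cells, at 33.7 against at most 14.7. After TMM scaling, 6 of the 15 tested genes listed for fusion and satellite cells were highest in this library. Of 8 genes of the receptor and synapse 3 were, against 9.656% of all tested genes. Of 7 genes of the response to denervation 0 were highest and 2 were lowest, where 5.78% of all tested genes were lowest. The lowest were TRIM63, at 92.8 RPKM against at least 129 in the others, and FBXO32, at 41.3 against at least 41.9. MYMK was highest there by deposited RPKM, at 5.58 against at most 5.30, but not after TMM scaling.

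Slow fibre genes went the other way in L replicate 2, and immune genes went up. MYL3, the slow myosin light chain, was at 108 RPKM there and at least 381 in every other library, and TNNT1, slow troponin T, at 381 against at least 709. After TMM scaling 5 of 6 adult fibre genes were lowest of all libraries there. Of 8 further genes listed for embryonic, neonatal or cardiac sarcomeres 4 were lowest, against 5.78% of all tested genes. By deposited RPKM, with the highest library first, TNNC2, MYL1 and ACTA1 of the adult fibre list ranked 19, 26 and 27 of the 32. CSRP3 of the other list ranked 31. All 4 macrophage markers were highest there, with a summed RPKM of 42.2 against 3.34 to 19.8 in the other 31 libraries, and CD68 was at 21.0 against at most 8.98. The NK and T cell markers summed to 13.1 RPKM against at most 4.04 elsewhere, and of these KLRD1 was at 0. By deposited RPKM the 4 fibroblast markers summed to 925 there, the highest of the 32 libraries. Of these, LUM was at 89.9 RPKM against at most 42.0 in the others. After TMM scaling 1 of the 4 fibroblast markers was highest there, where 9.656% of all tested genes were. The adipocyte marker PLIN1 was at 21.1 RPKM against at most 4.82 in the other L libraries, and it reached 34.3 in DLDPL. Of the cardiac markers MYBPC3 was at 0.0486 RPKM and RYR2 at 0.0464 in L replicate 2, both within the range of the other libraries. The row labelled MYH6 was at 144 against at least 442. Its group means were 685 to 861 RPKM, so which myosin gene its reads come from is uncertain, as for the row labelled MYH8. The part of other cell types in the levels of the 7 genes in this library was not tested.

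**Figure D5:**
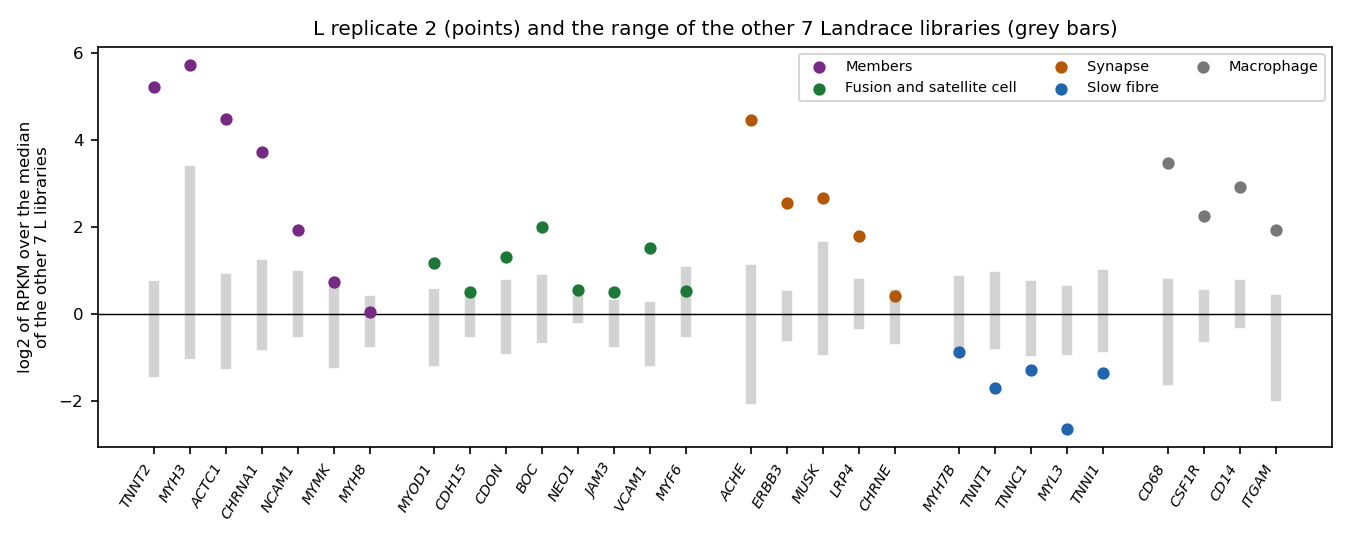
Log2 ratio of the RPKM in L replicate 2 to the median of the other 7 L libraries (y axis, points) for the 7 genes and genes of 4 lists (x axis), with grey bars from the lowest to the highest of those 7. TNNT2, MYH3, ACTC1, CHRNA1, ACHE and CD68 lie above the bars and the slow fibre genes TNNT1, TNNC1, MYL3 and TNNI1 below them.

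Related genes outside the 7 were counted from lists. Of 15 tested genes of myoblast fusion and satellite cells, 8 were lower and 1 higher in DPL than in L, where 18.9% of all tested genes were lower and 19.1% higher, with a median log2 change of -0.82, and the counts were the same without L replicate 2. CDH15 (M-cadherin), which joins satellite cells to fibres, was at 6.74 ± 1.69 RPKM in DPL and 15.1 ± 2.94 in L (SD, n = 8 each; log2 change -0.99 ± 0.17, adjusted p = 2.59e-05). MYF6, the myogenic factor of maturing fibres, was the one that was higher, at 225 ± 139 RPKM in DPL and 101 ± 33.5 in L (1.27 ± 0.22, adjusted p = 2.94e-05). NEO1, a receptor that promotes myoblast differentiation, was at 3.37 ± 0.569 RPKM in LDPL and 7.32 ± 1.27 in L (-1.05 ± 0.14, adjusted p = 1.55e-06). In LDPL and DLDPL against L, 4 and 3 genes of the list were lower and 1 and 1 higher, where 14.7% and 10.3% of all tested genes were lower and 14.9% and 11.6% higher.

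Other genes listed for embryonic, neonatal or cardiac sarcomeres were higher in part. Of 8 tested, 5 were higher in DPL than in L and 0 lower, 4 and 0 in LDPL, and 3 and 0 in DLDPL, where 19.1%, 14.9% and 11.6% of all tested genes were higher. These counts were the same without L replicate 2. They include ACTA2, the smooth muscle actin, in each comparison with L, and TNNC1 in DPL. The counts are thus not of immature isoforms alone. CSRP3, a stretch-responsive protein of the Z-disc, was at 814.5 ± 281.5 RPKM in DPL and 90.0 ± 63.3 in L (3.36 ± 0.38, adjusted p = 4.34e-08), and ANKRD1, a stress-responsive protein of the I-band, at 546 ± 373 in DPL and 225 ± 86.7 in L (1.43 ± 0.39, adjusted p = 0.0044). MYBPH, a myosin-binding protein, was at 1573 ± 387 RPKM in DLDPL and 764 ± 153 in L (1.07 ± 0.22, adjusted p = 0.000628). These genes, and the slow isoforms TNNC1 and TNNI1 on the list, are also made by adult fibres. The row labelled MYH6, also on the list, had group means of 685 to 861 RPKM, and the source of its reads is uncertain.

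Of 8 tested genes of the acetylcholine receptor and synapse, 1 was higher and 1 lower in DPL than in L, and 1 higher and 4 lower in LDPL, where without L replicate 2 the count of lower genes was 2. Of all tested genes 19.1% were higher and 18.9% lower in DPL, and 14.9% higher and 14.7% lower in LDPL. MUSK, the kinase that clusters the receptor, was higher in DPL, at 2.77 ± 2.03 RPKM, than in L, at 1.08 ± 1.01 (1.60 ± 0.42, adjusted p = 0.00298). ERBB3 was at 0.143 ± 0.0579 RPKM in DPL and 0.478 ± 0.516 in L (-1.43 ± 0.32, adjusted p = 0.000599). L replicate 2 held 1.75 RPKM of ERBB3, and the other 7 L libraries 0.209 to 0.397. Without L replicate 2 the log2 changes were -0.97 ± 0.26 for ERBB3 (adjusted p = 0.00369) and 1.92 ± 0.42 for MUSK (adjusted p = 0.000589). Of 7 genes of the response to denervation, 3 were higher and 1 lower in DPL than in L, against 19.1% and 18.9% of all tested genes, and 2 higher and 1 lower without L replicate 2. The ubiquitin ligase TRIM63 was at 355 ± 111 RPKM in DPL and 163 ± 45.6 in L (1.23 ± 0.19, adjusted p = 4.46e-06), and HDAC4, a deacetylase induced by denervation, at 2.06 ± 0.591 in DPL and 5.07 ± 1.48 in L (-1.15 ± 0.20, adjusted p = 2.23e-05). UCHL1, a deubiquitinating enzyme, was at 13.03 ± 10.6 RPKM in DPL and 3.89 ± 2.24 in L (1.97 ± 0.36, adjusted p = 5.46e-05).

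Of 6 tested genes of cell division, 5 were lower in DPL than in L and 0 higher, with or without L replicate 2, where 18.9% of all tested genes were lower. TOP2A, which untangles DNA in dividing cells, was at 0.175 ± 0.104 RPKM in DPL and 0.840 ± 0.307 in L (-2.10 ± 0.29, adjusted p = 7.58e-07). AURKB, a mitotic kinase, was at 0.167 ± 0.0828 RPKM in DPL and 0.618 ± 0.280 in L (-1.67 ± 0.34, adjusted p = 0.000246). These levels rest on few reads per library, 10 to 181 for TOP2A and 2 to 32 for AURKB, which limits their precision. Against DPL, 2 of the 6 were higher and 1 lower in LDPL, and 2 higher in DLDPL, where 1.29% of all tested genes were higher and 1.55% lower in LDPL and 1.98% higher in DLDPL. Of 6 adult fibre isoforms 2 were higher and 2 lower in DPL than in L, against 19.1% and 18.9% of all tested genes, and 1 higher and 2 lower without L replicate 2. Among them was MYH7B at 19.2 ± 6.56 RPKM in DPL and 8.04 ± 3.41 in L (1.43 ± 0.26, adjusted p = 7.05e-05).

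Markers of other cell types moved with the groups in part. Of 4 fibroblast markers 3 were lower in DPL than in L, with or without L replicate 2, where 18.9% of all tested genes were lower, among them COL3A1 at 45.4 ± 23.0 RPKM in DPL and 232 ± 77.2 in L (-2.17 ± 0.30, adjusted p = 8.15e-07). The summed RPKM of these 4 markers ran from 162 to 497 in DPL, 226 to 599 in LDPL, 299.8 to 827 in DLDPL and 386 to 925 in L. In the smooth muscle list TAGLN was higher and CNN1 lower in DPL than in L, and of 2 endothelial markers PECAM1 was lower. The tested markers of macrophages (4), NK and T cells (3), adipocytes (2), heart (2) and Schwann cells (2) did not pass the test in DPL against L, with adjusted p from 0.109 to 0.946. Without L replicate 2, CD14 and CD68 of the macrophage list were called higher in DPL than in L, by 1.08 ± 0.25 (adjusted p = 0.000912) and 1.26 ± 0.34 (adjusted p = 0.00376). The heart markers tested were RYR2 and the row labelled MYH6, which is of uncertain identity. The part of all these cell types in the changes of the 7 genes was not tested.

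For each of the 7, the tested genes with a symbol that had the highest Pearson's r were taken, as a description. The r was of group-centred log2 CPM over the 32 libraries. Being the highest of many, these r values were not tested. The row labelled MYH8 had the closest, ABCF1 (r = 0.81), ARID1B (r = 0.77) and STIM1 (r = 0.74), which were also the 3 closest without L replicate 2. MYMK was followed by MVK (r = 0.67), GLT8D2 (r = 0.64) and CDCA4 (r = 0.64), and NCAM1 by FGFR4 (r = 0.68), MACF1 (r = 0.66) and RASA3 (r = 0.66). For ACTC1 they were FOXRED2 (r = 0.66), SKAP1 (r = 0.65) and SPP1 (r = 0.64). Without L replicate 2, SKAP1 was at r = 0.56 with ACTC1 and RASA3 at r = 0.55 with NCAM1. TNNT2 had CLU (r = 0.69, but 0.16 without it), CDH1 (r = 0.68) and NRIP3 (r = 0.68), MYH3 had ABR (r = 0.70, 0.53 without it), AMPD3 (r = 0.67) and C4A (r = 0.64), and CHRNA1 had POP1 (r = 0.69, 0.67 without it), CPSF3 (r = 0.64) and ABR (r = 0.63, 0.41 without it).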

How the data were processed

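Whole-tissue RNA of frozen loin muscle was sequenced from libraries whose kit is not stated to mark strand, so reads of overlapping antisense genes cannot be told apart. The authors deposited, for each of the 32 libraries, uniquely mapped read counts per gene, RPKM, gene length and covered length, per the file headers. The deposited RPKM are relative to the listed length and the total of uniquely mapped reads. Bowtie 0.12.2, Cufflinks and mm8, a mouse build, are named per the submitters' processing notes, and the pig build is not given in the sources used here. Symbols from a gene name table matched 10836 of 17930 identifiers, 60.4%.

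Counts were tested in 1 fit of all 4 groups with edgeR 4.0.16 in R 4.3.3 (TMM scaling, filterByExpr with a minimum count of 10 and a total of 15, quasi-likelihood test, Benjamini-Hochberg adjustment over 12821 genes, threshold 0.05). The tested genes held 99.967% of the reads. Correlations used log2 CPM with a prior count of 2 and 100000 permutations (Python 3.11.15). DESeq2 1.42.0, limma 3.58.1 on log2(RPKM + 1) and log2(RPKM + 0.1), other scalings and filters, and leaving out each library were alternatives, and the counts of listed genes without L replicate 2 were added after seeing the data. The fit was tested on simulated data. The 7 genes and the lists were chosen with earlier results of these data known. Genes named from the pathway lists were up to 3, and from the cell type lists up to 2, with the smallest adjusted p over the 6 comparisons. Like genes were the 3 with the highest r among tested genes with a symbol outside the 7. Other genes were named after their values were seen.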

Additional observations from a re-analysis of the deposited data

Results flagged for a closer look

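Of 28 sets of 8 libraries (7 genes in 4 groups), 7 held a library whose gap to the nearest other exceeded Dixon's critical value for 8 samples. All 7 were high values. The rule flags about 1 in 20 by chance where values are normally distributed, and it was applied to RPKM without logs. L replicate 2 accounted for 5 of the 7 flags, so these 5 are not separate. It had 54.6 RPKM of MYH3 (next highest L library 10.1), 296.5 RPKM of ACTC1 (23.0), 80.7 RPKM of TNNT2 (3.399), 8.90 RPKM of NCAM1 (4.28) and 5.94 RPKM of CHRNA1 (0.981).

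The other flagged values were in single libraries of the crosses. LDPL replicate 10 had 11927 RPKM of the row labelled MYH8, and the next highest LDPL library 6644. DLDPL replicate 29 had 5.97 RPKM of NCAM1, and the next highest DLDPL library 3.58.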

How the results depend on the processing

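Over the 42 changes (7 genes in 6 comparisons), 381 of 421 values under other scalings, filters, fits and tools kept their direction and their side of the threshold, 18 lost the call, 15 gained it and 7 changed sign. Of 672 values with 1 library left out, 613 kept both, 21 lost the call, 10 gained it and 28 changed sign. No change of sign involved a call, and the cause of these changes was not tested. In LDPL against L, 6 of the 7 genes were called with DESeq2, where 2066 of 12821 genes were higher and 1981 lower. With only both groups fitted the count was also 6, where 2016 of 12297 genes were higher and 2081 lower. With no filter 3 of the 7 were called, where 1958 of 17930 genes were higher and 1681 lower. With the replicate block 0 were called, where 994 of 12237 genes were higher and 823 lower. That paired fit used the 5 numbers shared by L and LDPL (10 libraries). The same libraries with no block also gave 0, where 1189 genes were higher and 987 lower. Same-numbered libraries correlated by -0.10 to 0.07 in their deviations from the group means, and 1 of 5 matched its own number best. Whether they share more than a number cannot be told from 5 pairs. In DLDPL against L the count was 4 without TMM and 1 with limma on log2(RPKM + 1) or log2(RPKM + 0.1). Of 12821 genes, 1053 were higher and 1089 lower there without TMM. With limma 1008 were higher and 1237 lower on log2(RPKM + 1), and 1019 and 1090 on log2(RPKM + 0.1). In DLDPL against DPL the count was 2 without TMM, with either limma fit, with only both groups fitted and with DESeq2. Of 12821 genes, 481 were higher and 49 lower there without TMM, and 377 and 425 with DESeq2. The limma fits gave 397 and 53 on log2(RPKM + 1), and 473 and 54 on log2(RPKM + 0.1). With only both groups fitted, 136 of 12142 genes were higher and 116 lower. The pairs correlated were 0 by Spearman's rho, 9 on log2(RPKM + 1), 8 on log2(RPKM + 0.1) and 8 without TMM.

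With 1 library left out, the counts ran from 5 to 6 in DPL against L, 3 to 5 in LDPL against L, 0 to 3 in DLDPL against L, 0 to 1 in LDPL against DPL, 1 to 2 in DLDPL against DPL and 0 to 6 for pairs. The log2 changes with a change of sign then ran as follows. ACTC1 ran from -0.67 to 1.18 in DPL against L and from -0.11 to 0.44 in DLDPL against LDPL. NCAM1 ran from -0.34 to 0.0572 in LDPL against L, -0.23 to 0.11 in DLDPL against L and -0.0767 to 0.25 in DLDPL against LDPL. MYMK ran from -0.22 to 0.0294 in DLDPL against L, and the row labelled MYH8 from -0.0939 to 0.35 in DLDPL against LDPL. In LDPL against DPL, CHRNA1 ran from -0.18 to 0.14, MYH3 from -0.68 to 0.0174 and TNNT2 from -0.30 to 0.0267. MYH3 ran from -0.24 to 0.27 in DLDPL against DPL. Under other settings NCAM1 was 0.32 in LDPL against L with the replicate block. CHRNA1 in LDPL against DPL was 0.045 without TMM and 0.0064 with limma on log2(RPKM + 1), and TNNT2 was 0.0401 with limma on log2(RPKM + 0.1). MYH3 in DLDPL against DPL was 0.16 without TMM, 0.097 with limma on log2(RPKM + 1) and 0.24 on log2(RPKM + 0.1). The stricter filter removed CHRNA1, and its few reads, like those of MYMK and TNNT2, limit precision.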
